A study of Mus musculus with 3 samples.

Results

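The genes described here are the heat shock proteins, their J-domain partners, the cytosolic chaperonin ring and the heat shock factors, as measured in LNC cells. The members were the probe sets whose single annotated gene symbol begins with Hspa, Hspb, Hspd, Hspe, Hsph, Hsp90, Dnaja, Dnajb, Dnajc or Hsf, or is Stip1, Tcp1 or a listed Cct gene. This gave 75 probe sets of 57 genes, among 12588 probe sets that are not controls and 8220 genes named by a probe set with 1 symbol. By compartment, fixed from what is known of each protein, 34 genes belong to the cytosol or nucleus (the chaperonin ring included), 7 to the endoplasmic reticulum (ER) and 6 to mitochondria, 2 are heat shock factors, and 8 were given no compartment.

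Chaperones bind unfolded stretches of other proteins and keep them from aggregating until they fold. In the cytosol, Hsp70 proteins are loaded with clients by J-domain proteins, which stimulate their ATPase, and pass some of them to Hsp90 or to the chaperonin ring that folds actin and tubulin. The ER and the mitochondrial matrix have their own Hsp70 proteins and partners, and B cells that secrete antibody are known to depend on the ER set. Heat shock factors switch on cytosolic chaperone genes, and the unfolded protein response switches on those of the ER.

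LNC is a line of malignant B-1 cells grown from the lymph node of an NZB (New Zealand Black) mouse aged 1 year. The 3 arrays, 1 per group, held RNA of cells given 20 µM of an IL-10 antisense oligonucleotide, cells given 20 µM of a scrambled oligonucleotide as the control for oligonucleotide effects, and untreated cells, with collection at 24 h. All groups are the same cell line, and the labels do not say whether an array held 1 culture or a pool. The question is how chaperone transcripts in cells given the antisense oligonucleotide stand beside those in both kinds of control. Since a group is 1 array, nothing was tested between groups and no value has an error, and sizes are set beside the difference between both control arrays. Where 3 intensities stand in a row, they are in the order antisense label, scrambled, untreated, and a value "against" a pair has scrambled first.

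The quantity throughout is a probe set's intensity, scaled so that the arrays share a common level, and intensities of different probe sets are not set against each other. The noise floor was 595.9, and a lower value was raised to it before log2 was taken. Of the 75 member probe sets, 52 probe sets of 38 genes were above the floor on at least 1 array, 37 were above it on all 3, and 23 were at or below it on all 3. A probe set could pass through a single array, as 7 members did and 8 did through a pair of arrays. The control spread is the 95th percentile of the absolute log2 difference between the scrambled and untreated arrays over the 300 probe sets nearest in level. This spread narrowed with brightness, from 2.28-fold (intensity 1000) through 1.77-fold (2000) to 1.26-fold (16000).

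Il10 itself read 13946 on the array labelled antisense, 5616 (scrambled) and 5164 (untreated), so the direction at the RNA level was opposite to a loss of the target, and the first array is called by its label throughout. Of 8 B cell marker genes on the array, 7 were above the floor on all arrays, while Cd5, a surface protein that marks many B-1 cells, read -271, -736 and 113 in the same order of arrays. Taken by the brightest probe set of each gene, the summed B cell intensity was 272860, 363596 and 320520. Ms4a1, Cd79a and Cd74, markers of the B cell surface and antigen presentation, were lower on the array labelled antisense past the spread against both controls, by log2 differences from scrambled and untreated of -0.53 and -0.51, of -0.50 and -0.37, and of -0.54 and -0.35. The brightest probe sets of Ighm, Pax5, Ptprc and Cd79b were not past it against both. Other Ighm probe sets were higher past the spread against both controls. From scrambled and untreated, 101870_at differed by 0.67 and 0.94 (spread 0.33) and 101871_f_at by 2.38 and 2.49 (spread 0.86). The part of the B cell markers in the results was not tested. Of 7 markers of T cells, macrophages and red cells, none was above the floor on all arrays. Their summed intensity was 2447, 1091 and 2577, and the globin gene Hba-a1 was the highest of them, at 2233, 559.6 and 1628. The 3-prime over 5-prime signal of 18S ribosomal RNA was 8.13, 4.48 and 1.72 in that order, and its part in the results was not tested. The 6 bacterial spike-in probe sets were lower on the array labelled antisense, and scaling to them would add 0.63 to each log2 difference from untreated, 0.51 to each difference from scrambled and 0.12 between the controls. Every direction above and below is relative to the common level of the arrays, and spike-in scaling takes away the lower level of these B cell markers against untreated.

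The array labelled antisense lay below both controls by more than the control spread in 4 probe sets, of Hspa8, Hspa5, Hspa4 and Dnajc3, and above both in 1, of Hsph1. These are 4 of 52 member probe sets, where 2.5% of all 6127 probe sets tested were lower in this way, and 1 of 52, where 2.76% were higher. Among probe sets above the floor on all arrays they are 4 of 37 lower, against 2.97% of all, and 1 of 37 higher, against 2.86%. No member was at least 2-fold apart from both controls in 1 direction, where 1.35% of all were 2-fold higher and 1.06% were 2-fold lower. Spike-in scaling turned the split past the spread to 15 higher and 0 lower. Both comparisons share the array labelled antisense, so their agreement is not independent. The B cell marker genes Ms4a1, Cd79a and Cd74 were lower on that array too, by differences near those of Hspa8 and Hspa5. The Ighm probe sets 101870_at and 101871_f_at were higher on it, past the spread against both controls.

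Hspa8 encodes the constitutive cytosolic Hsp70, which serves newly made proteins in most cells. It read 29367 on the array labelled antisense, 39422 (scrambled) and 43111 (untreated), a log2 difference of -0.55 from untreated and -0.42 from scrambled, both beyond the control spread of 0.32. Both controls lay within 0.13 of each other. With spike-in scaling the 2 differences turned to 0.08 and 0.09, so Hspa8 was lower relative to the array's other transcripts and not relative to the spike-in controls. The heat-inducible Hsp70 genes Hspa1a and Hspa1b were not above the floor on any array, with intensities between -54.4 and 262.5. Hspa2, a relative best known from testis, and Hspa4l, an Hsp110 relative of Hspa4, were also at or below it, and Hspa1l read 393, 677 and 665, under or close to the floor. Hspa14, a ribosome-associated Hsp70, read 3003 on the array labelled antisense against 3229.8 (scrambled) and 3385 (untreated), within the spread of 0.71.

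The Hsp110 proteins serve as nucleotide exchange factors of Hsp70. Hsph1 was higher on the array labelled antisense, at 11323 against 8274 (scrambled) and 8635 (untreated), which is 1.37-fold and 1.31-fold where the control spread was 1.29-fold. With quantile normalization Hsph1 was no longer past the spread against both controls, with differences of 0.45 from scrambled and 0.37 from untreated, and with spike-in scaling its differences were 0.97 and 1.02. Hspa4, another Hsp110 gene, was read by 4 probe sets that went different ways. One of them, 92571_at, read 4297 on the array labelled antisense against 8759 (scrambled) and 8541 (untreated), the largest difference of a member above the floor on all arrays, at -1.03 and -0.99. That probe set stayed lower with spike-in scaling, at -0.51 and -0.36. Probe set 96594_at read 4939, 4431 and 4707 on the same arrays, with differences of 0.16 and 0.07. Probe set 100353_g_at read 4243, 4253 and 6906, so both oligonucleotide arrays were low and only the untreated array was high. The dimmest, 100352_at, read 586 on the array labelled antisense, under the floor, against 800.3 and 1365. It was at least 2.29-fold lower than untreated, just past the spread of 2.26-fold and the only member lower by 2-fold in that comparison, and within the spread against scrambled. Of the 4 Hspa4 probe sets, then, 3 were past the spread against untreated and lower, 1 of these was also past it against scrambled, and 96594_at was past neither.

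Hsp90aa1 encodes the inducible cytosolic Hsp90, which holds kinases and steroid receptors in a form ready for activation. It read 40603 on the array labelled antisense, 51282 (scrambled) and 49297 (untreated). The difference was -0.34 from scrambled, just past the spread of 0.32, and -0.28 from untreated, within it. Quantile normalization gave -0.24 from scrambled, and spike-in scaling turned the differences to 0.18 and 0.35. Stip1, the adaptor that joins Hsp70 to Hsp90, went the other way, at 8671 against 7126 and 7287, differences of 0.28 and 0.25 within the spread of 0.41. Hspbp1, an exchange factor of Hsp70, was above the floor on the scrambled array alone, at 1451 in a family probe set, at least 2.43-fold over the others. Of these genes Hspa8 was past the spread against both controls, Hsp90aa1 against scrambled alone and Stip1 against neither. With spike-in scaling all 3 were above both controls.

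**Figure D1:**
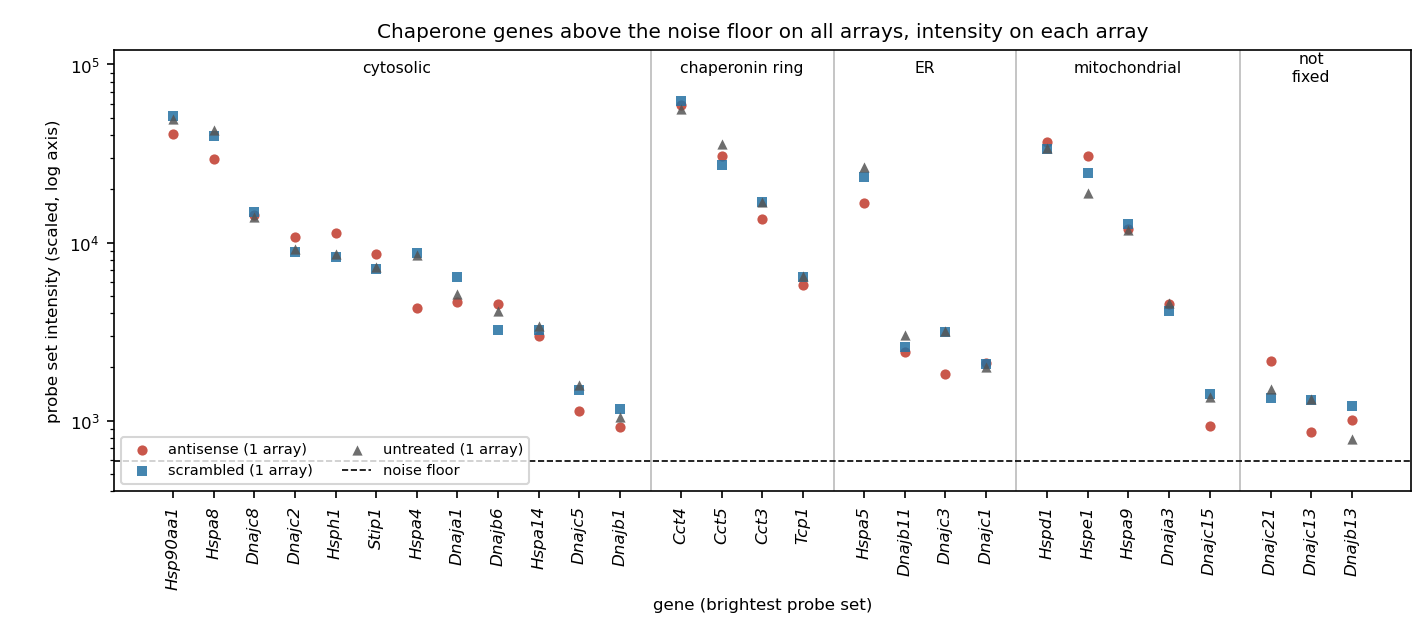
Scaled intensity (log axis) of the 28 chaperone genes above the noise floor on all arrays, each by its brightest probe set, with 1 point per array and the floor of 595.9 as a dashed line. Of the 28 genes, 14 have the point of the array labelled antisense below both controls and 8 above, relative to the common level of the arrays. Past the control spread against both, Hspa8, Hspa5, Hspa4 and Dnajc3 are below and Hsph1 is above. Hspe1 is above both, within the spread against scrambled. Heights of different genes are not comparable.

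Of the cytosolic J-domain genes, none was past the spread against both controls. Dnaja1, a main partner of Hspa8, read 4613 on the array labelled antisense, 6371 (scrambled) and 5107 (untreated), with differences of -0.47 and -0.15 against a spread of 0.48. Dnajb1, the heat-inducible partner, read 919, 1161 and 1043, a little above the floor. Dnajb6, which restrains aggregation of polyglutamine proteins, read 4542, 3246 and 4129 in its brighter probe set and 1973, 1739 and 1512 in the other, higher than both controls in each but within the spread. Dnajc2, a J-domain protein of the ribosome, was higher than both controls in 2 probe sets, at 10722 against 8897 and 9186 and at 8062 against 6159.8 and 6722, again within the spread. Dnajc5, of synaptic and other vesicles, read 1134 against 1478 and 1593. Dnajb4 was the exception in size: it read 589 on the array labelled antisense, under the floor, against 1678 (scrambled) and 956 (untreated), so scrambled was at least 2.82-fold over the array labelled antisense while the difference from untreated lay within the spread. Dnajc8, a nuclear protein bound to splicing factors, read 14367, 14802 and 13981 in 1 probe set and 8922, 7431 and 6025 in another, and only the second was past the spread, against untreated, at 0.57. Dnajb2, a partner of Hsp70 known from neurons, was above the floor on the array labelled antisense alone, at 615.

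The chaperonin ring, a cylinder of related subunits that encloses actin and tubulin, differed little. Cct4 read 59510.4 on the array labelled antisense, 62414 (scrambled) and 56498 (untreated), and both differences of that array, -0.07 and 0.07, lay well within the spread of 0.33. Cct5 read 30473, 27289.6 and 35727, so the scrambled array was low, by -0.39 from untreated and past the spread of 0.33, and the array labelled antisense lay between the controls. Its dimmer probe set, at 1171, 1547 and 1971, was lowest on the array labelled antisense, within the spread of 1.06. Cct3 read 13544 against 16844 and 16929 in 1 probe set, with differences of -0.31 and -0.32 just inside the spread of 0.33, and 13406 against 13289 and 13320.5 in another, with no difference beyond 0.01. Its dimmest probe set read 364 against 864 and 775. Tcp1, the first subunit, read 5780.5, 6363 and 6481, differences of -0.14 and -0.16 within the spread. Cct2 passed through the untreated array alone at 958, Cct6a through the array labelled antisense at 714, and Cct7 and Cct8 were at or below the floor on all arrays. Over the 6 ring genes past the filter the median log2 difference was -0.20 from untreated and -0.03 from scrambled, which spike-in scaling turned to 0.43 and 0.41.

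The ER holds the Hsp70 gene Hspa5, which encodes BiP, the chaperone that binds immunoglobulin heavy chains before light chains join them. Hspa5 read 16644 on the array labelled antisense, 23369.8 (scrambled) and 26549.7 (untreated), a difference of -0.49 from scrambled and -0.67 from untreated where the spread was 0.33. The array labelled antisense was 1.40-fold below scrambled and 1.60-fold below untreated, and the controls were 1.14-fold apart. Dnajc3, a J-domain cofactor of BiP, read 1821 against 3128 and 3191 in probe set 102414_i_at, differences of -0.78 and -0.81 slightly past the spread of 0.75. A second Dnajc3 probe set made from the same transcript record, 102415_r_at, read 1489 against 2125 and 2306, in the same direction but within its spread of 0.86. The third, 94343_at, read 954, 1039 and 891, between the controls, and the last, 98654_f_at, was above the floor on the untreated array alone. With spike-in scaling Hspa5 stood at 0.02 from scrambled and -0.04 from untreated, and the first Dnajc3 probe set at -0.27 and -0.18.

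Hspa5 and Dnajc3 share a promoter feature that their intensities did not define. Of the 57 member genes, 48 matched the RefSeq promoter table of GRCm38.p6, which holds 250 bases before and 50 after each start. The ER stress element, CCAAT and CCACG with 9 bases of any kind between them, searched on both strands, was in the windows of 3 of these 48 genes, Hspa5, Dnajc3 and Hsp90b1. It was in those of 0.137% of all 27025 genes with a window. It lay at bases -65 to -47 from the start of Hspa5 and -105 to -87 from that of Dnajc3. The Hspa5 probe set and 1 of 4 Dnajc3 probe sets were lower on the array labelled antisense past the spread against both controls. Hsp90b1 was at or below the floor on all arrays. The 150 bases before the starts of Hspa5 and Dnajc3 are shown, with the element in capitals. They are from the plus strand at chr2:34771940-34772089 for Hspa5 and chr14:118937782-118937931 for Dnajc3.
Hspa5: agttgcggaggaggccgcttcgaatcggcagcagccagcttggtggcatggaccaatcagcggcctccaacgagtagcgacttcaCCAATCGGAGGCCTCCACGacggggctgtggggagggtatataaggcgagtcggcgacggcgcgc
Dnajc3: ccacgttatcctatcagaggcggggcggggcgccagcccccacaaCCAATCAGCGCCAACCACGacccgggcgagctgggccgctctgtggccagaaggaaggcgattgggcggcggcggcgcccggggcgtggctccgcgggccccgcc
The windows hold these letters, which is a description and not evidence of a factor at work there.

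The other ER members did not differ beyond the spread. Hsp90b1, the ER Hsp90 also called Grp94, was at or below the floor on all arrays in its only probe set, at 254, 344 and 559. Dnajb11, a cofactor of BiP, read 2432 on the array labelled antisense, 2603 (scrambled) and 3022 (untreated), within its spread of 0.68. Dnajc1, a J-domain protein of the ER membrane, read 2116, 2075 and 1992, nearly level. Dnajb9, which is induced by ER stress, had 2 probe sets close to the floor that went opposite ways, at 831, 487 and 739 in 1 and at 505, 624 and 754 in the other. Dnajc10, a reductase of the ER, was not above the floor. The ER members past the spread against both controls were thus Hspa5 and 1 of 4 Dnajc3 probe sets.

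In mitochondria, Hspd1 and Hspe1 encode the chamber and the lid of the matrix chaperonin and are transcribed from opposite strands of 1 region. Hspe1 read 30581 on the array labelled antisense, 24604 (scrambled) and 18993 (untreated). It was 1.61-fold over untreated and 1.24-fold over scrambled, the first past and the second within the spread of 1.26-fold, and scrambled was itself 1.30-fold over untreated, past the spread. Both oligonucleotide arrays were thus above the untreated array. Hspd1 read 36556, 33536 and 33908, a difference of 0.12 from scrambled and 0.11 from untreated, within the spread of 0.32. The pair had the same direction against both controls, and the difference from untreated was 0.69 for Hspe1 and 0.11 for Hspd1.

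The region between their starts is shown because both genes are read from it. The heat shock element alternates the units GAA and TTC with 2 bases of any kind between them. Its 3-unit form, starting with either unit and searched on both strands, was in the windows of 4 of the 48 matched member genes, Hspd1, Hspe1, Hsph1 and Dnajb6, and in those of 0.662% of all genes with a window. In Hsph1 it lay past the start, and in Dnajb6 before it. The 2-unit form, GAANNTTC or TTCNNGAA, which every 3-unit form contains, was in 14 of the 48 genes and in 17% of all genes with a window. Besides the 4 genes with the 3-unit form these were Dnaja1, Dnajb4 and Cct5, whose brightest probe sets were lower than untreated, Cct2, Cct6a and Hspb8, above the floor on a single array, and Hspa1a, Hspa1b, Hspb1 and Dnajc10, at or below it on all. The 215 bases from the base after the nearer Hspd1 start to the base before that of Hspe1 are chr1:55087933-55088147 on the plus strand, the strand of Hspe1, with 2 overlapping 3-unit elements in capitals, at bases -89 to -72 from the Hspe1 start. The table lists 2 starts of Hspd1, and the other lies beyond that of Hspe1.
Hspe1: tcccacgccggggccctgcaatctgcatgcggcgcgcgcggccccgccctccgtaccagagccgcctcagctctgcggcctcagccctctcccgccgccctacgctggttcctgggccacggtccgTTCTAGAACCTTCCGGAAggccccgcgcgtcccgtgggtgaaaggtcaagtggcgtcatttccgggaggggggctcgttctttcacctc
The 4 genes with the 3-unit form read above both controls, as 37.2% of all probe sets tested did. Of these 4, only Hspe1 against untreated and Hsph1 against both controls were past the spread. Hspd1 and Hspe1 share 1 region. With the 2-unit form alone, the brightest probe sets of Dnaja1, Dnajb4 and Cct5 lay below untreated within the spread. Against scrambled, Dnaja1 was lower within the spread, Dnajb4 lower past it (-1.49, spread 1.18) and Cct5 higher within it (0.16). Cct6a read above both controls, by 0.26 within its spread of 0.35. Cct2 and Hspb8 lay below untreated within the spread and level with scrambled at the floor. A link between motif and direction was not tested. No match in a window says only that these letters are not in it.

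Hspa9, the matrix Hsp70 also called mortalin, read 11918 on the array labelled antisense, 12647 (scrambled) and 11802 (untreated). Dnaja3, its J-domain partner, read 4502, 4138 and 4598. Neither differed beyond 0.12 from either control. Dnajc15, a J-domain protein of the inner membrane import motor, read 928 against 1413 and 1359, lower than both controls and within the spread of 1.23 at this low level. Dnajc11, of the mitochondrial membrane, was at or below the floor on all arrays.

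**Figure D2:**
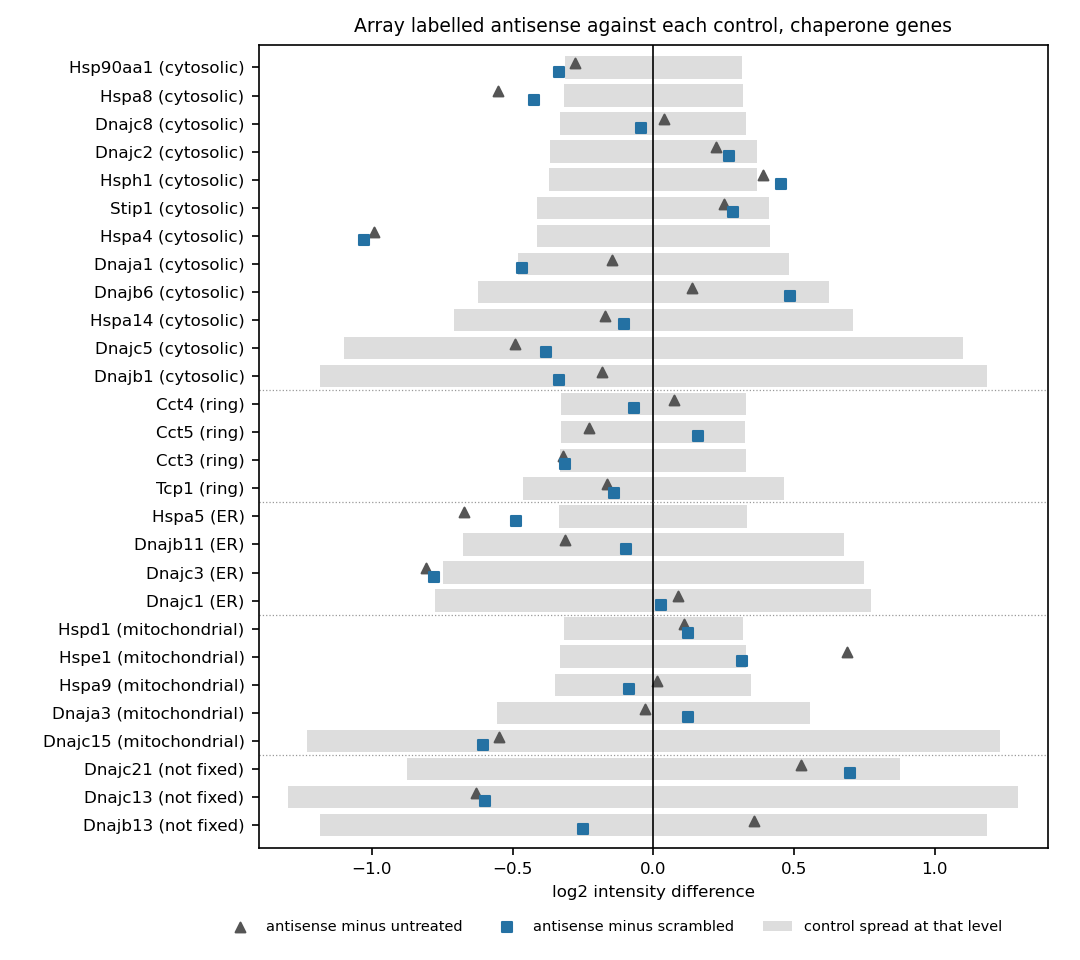
Log2 intensity difference of the array labelled antisense from the untreated array (triangles) and from the scrambled array (squares) for the same 28 genes, with the control spread at each gene's level as a grey bar centred on 0 and 1 array per group. Hspa8, Hspa4, Hspa5 and Dnajc3 have both points left of the bar and Hsph1 has both right of it; spike-in scaling would move all triangles right by 0.63 and all squares by 0.51.

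By compartment, with the brightest probe set standing for a gene, the median log2 difference from untreated was -0.31 for 5 ER genes, -0.16 for 24 cytosolic genes and 0.01 for 5 mitochondrial genes past the filter. From scrambled the medians were -0.10, -0.09 and 0.12, and between the controls -0.18, -0.0036 and 0.06. For all 6127 probe sets tested the 3 medians were 0. Over members above the floor on all arrays the ER median was -0.49 from untreated and -0.29 from scrambled for 4 genes, the cytosolic median -0.17 and -0.12 for 16, and the mitochondrial values were the same, with all 5 genes. The ER median rests on few genes, and without suffixed probe sets, which removes the brighter Dnajc3 ones, it was 0.09 from untreated. It was then above the mitochondrial median, 0.06, and the cytosolic median, -0.165. The order of mitochondrial over cytosolic over ER genes from untreated thus did not hold in that setting. With spike-in scaling it held, at 0.64, 0.45 and 0.32 from untreated, but from scrambled the cytosolic median, 0.29, was then under the ER median, 0.41. Over all member genes past the filter, 16 of 38 were lower than both controls and 12 were higher. Of the 52 probe sets 22 were lower than both, against 32.0% of all probe sets tested, and 17 higher, against 37.2%.

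In comparisons of 1 array with another, the member share at 2-fold lay on either side of the share over all probe sets. Past the control spread it lay above that share in each comparison. At 2-fold, 2 of 52 members were apart between the array labelled antisense and untreated (3.85% of members, 4.85% of all). Between it and scrambled 3 were apart (5.77% and 6.02%), and between the controls 2 (3.85% and 3.1%). Past the control spread these numbers were 10 (19.2% and 8.96%), 8 (15.4% and 11.1%) and 4 (7.69% and 4.08%). By direction, against untreated 4 members were higher (7.69% and 4.88%) and 6 lower (11.5% and 4.08%). The 6 lower probe sets belong to 4 genes, Hspa8, Hspa5, Dnajc3 and Hspa4. Of them 3 are of Hspa4, whose other probe set differed by 0.07, and 1 of these 3 read under the floor on the array labelled antisense. Against scrambled 1 was higher (1.92% and 5.37%) and 7 lower (13.5% and 5.75%). Between the controls 2 were higher with the scrambled oligonucleotide (3.85% and 2.24%) and 2 lower (3.85% and 1.84%). The 4 members that differed between the controls past the spread were Hspe1 and Hspbp1, higher with the scrambled oligonucleotide, and a probe set each of Cct5 and Hspa4, lower with it.

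Small heat shock proteins and heat shock factors gave little signal. Hspb1, the small heat shock protein also called Hsp25, was at or below the floor on all arrays, as were Hsf2 and Hsf4. Hspb2, a small heat shock protein of muscle, read 1487 on the array labelled antisense and 1361 on the scrambled array in probe set 103215_g_at against 456 on the untreated array, below the floor, so the array labelled antisense was at least 2.49-fold and the scrambled array at least 2.28-fold over untreated. The other Hspb2 probe set, from the same transcript record, was below 0 on all arrays. Hspb8, a small heat shock protein that works with Bag3, was above the floor on the untreated array alone, at 695. Hspb11, named as a small heat shock protein and known as a component of the cilium's transport complex, read 776, -132 and 945. Among the J-domain genes with no compartment fixed, Dnajc21, of ribosome assembly, read 2170.4 against 1339 and 1510.2, Dnajc13, of endosomes, read 858 against 1300.0 and 1327, and Dnajb13, a sperm flagellum gene, read 1009.8, 1202 and 789, each within its spread. Dnajb3, Dnajb8, Dnajc4 and Dnajc17 of that group, and Dnaja2, Dnajb5 and Dnajc9 of the cytosol and nucleus, were at or below the floor on all arrays.

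In all, 9 genes had more than 1 probe set past the filter. A difference of 0, from values at the floor, counted as not of 1 sign. This decided the count for Dnajb13 against untreated and for Dnajc3 against scrambled. All probe sets of a gene had 1 sign against untreated in 4 of 9 genes and against scrambled in 3 of 9, where the share over 554 such genes of the array was 50.2% and 49.5%. The median gap between the highest and lowest probe set of a gene was 0.51 against untreated and 0.55 against scrambled for the members, and 0.39 in both for all genes. Dnajc2 agreed best, with a gap of 0.04 against untreated, and Hspa4 worst, with 1.27. For Hspa4 and Dnajc8 the gap against untreated was larger than the control spread of any of their probe sets, and for Hspa4 this held against scrambled too. Cct5 had 1 sign against untreated and Dnajb6 had 1 sign against both, while Cct3 and Dnajb9 had probe sets on both sides in both comparisons and those of Dnajc3 ran from -0.81 to 0.10 against untreated. The Cct3 probe set on the higher side was at 0.01 in both. Probe sets of a gene share the RNA and the array, so their agreement is not replication. Some can bind other transcripts, and 15 of the 75 member identifiers carry a suffix that marks shared or reduced probe sets.

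**Figure D3:**
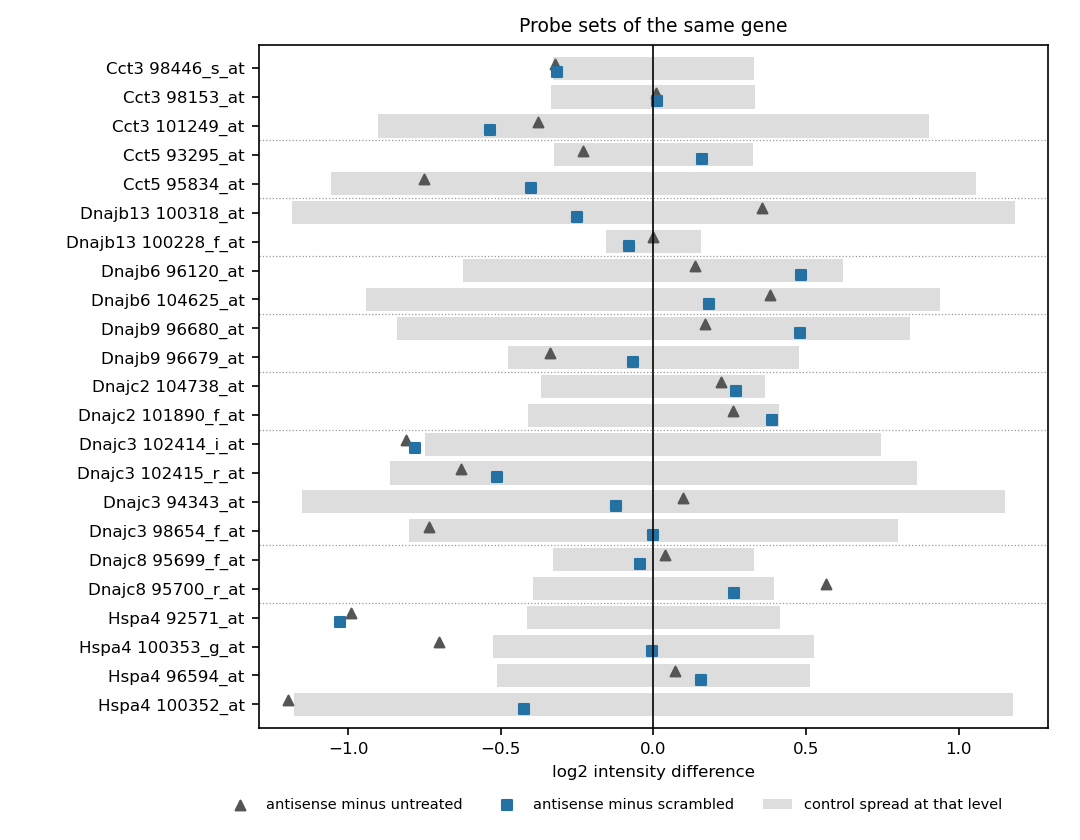
Log2 intensity difference of the array labelled antisense from untreated (triangles) and scrambled (squares) for each probe set of the 9 chaperone genes with several probe sets past the filter, with the control spread at its level as a grey bar and 1 array per group. The Hspa4 probe sets run from -1.20 to 0.07 against untreated, while the pair of Dnajc2 differs by 0.04; spike-in scaling would move triangles above the floor right by 0.63 and squares by 0.51.

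Other genes of the folding machinery were taken from lists. Of all 6127 probe sets tested, 32.0% read below both controls and 37.2% above. Past the spread against both controls, 2.5% of all were lower and 2.76% higher. Of 18 ER folding and stress genes on the array, 16 passed the filter, and 9 of them read below both controls and 5 above, at a median of -0.18 from untreated and -0.22 from scrambled. Manf, an ER stress-induced secreted factor that binds BiP, was the 1 of 21 probe sets past the spread against both. It read 7617 against 11049.5 (scrambled) and 10565 (untreated). Pdia4, a disulphide isomerase that works beside BiP, read 2503 against 3855 and 4438, past the spread of 0.66 against untreated at -0.83 and within it against scrambled at -0.62. Pdia6, a second isomerase, read 6044 against 7685 and 8370.4 in its brighter probe set. That was past the spread of 0.38 against untreated at -0.47 and within it against scrambled at -0.35. Its other probe set past the filter was within its spread, at -0.30 from untreated and -0.10 from scrambled. Ero1a, which reoxidises the isomerases, read higher than both in 1 probe set, at 3406 against 2524 and 2519.9, within the spread. No transcription factor gene of the unfolded protein response in this list read below both controls. Xbp1 read 6045, 5943 and 6316, Atf4 read 14916, 15782 and 12399.6, and Atf6 read 1674, 1263 and 1482, each within its spread for the array labelled antisense. Ddit3 read 2559, 2399 and 1329.9, with both oligonucleotide arrays above untreated. Its difference from untreated, 0.94, was past the spread of 0.82, and that from scrambled was 0.09. These are RNA levels, and the activity of the factors was not tested.

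**Figure D4:**
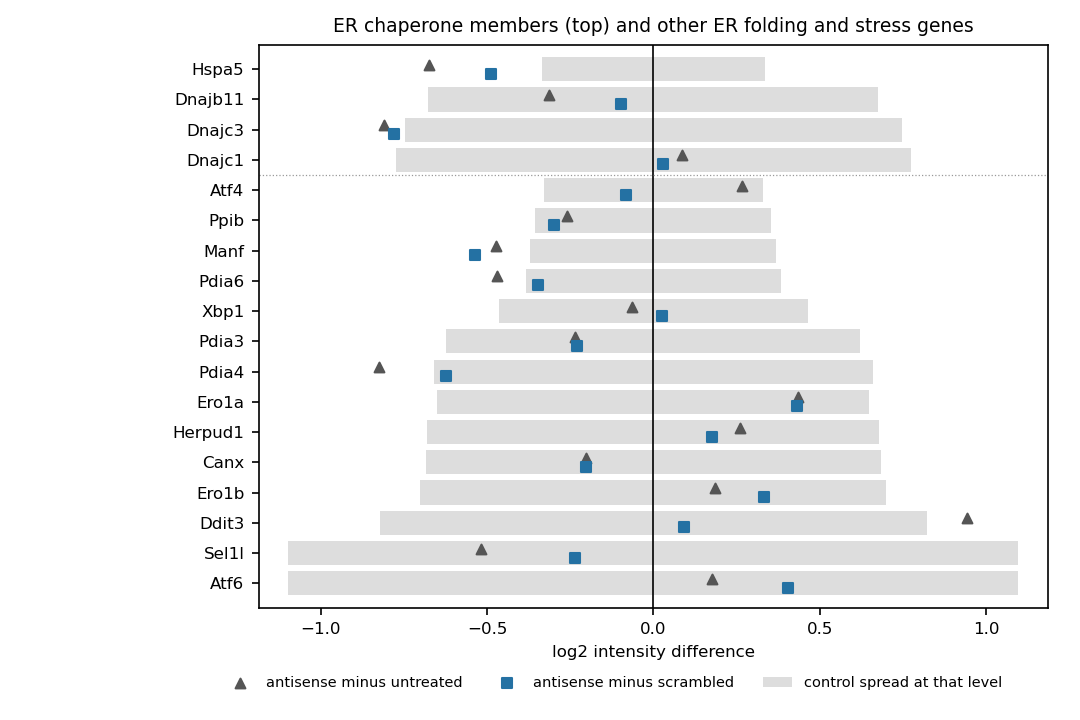
Log2 intensity difference of the array labelled antisense from untreated (triangles) and scrambled (squares) for 4 ER chaperone members, above the dotted line, and other ER folding and stress genes above the floor on all arrays, below it, with the control spread at each level as a grey bar and 1 array per group. Hspa5, Dnajc3 and Manf have both points left of the bar; with spike-in scaling triangles would move right by 0.63 and squares by 0.51.

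Of 18 co-chaperone and prefoldin genes past the filter, 8 read above both controls and 6 below, against 37.2% and 32.0% of all probe sets tested. The medians were 0.10 from untreated and 0.04 from scrambled. Bag1, an exchange factor of Hsp70, was the 1 of 23 probe sets past the spread against both. It read 3909 against 1454 and 1275, or 2.69-fold and 3.06-fold. Bag3, a heat-inducible relative, passed through the array labelled antisense alone at 879.9. Fkbp5, an Hsp90 partner of steroid receptors, read 3855 against 2916 and 2586, and Unc45a, an Hsp90 partner of myosin, read 1773 against 1112 and 1148, both within the spread. Of 7 mitochondrial partner genes past the filter, none was past the spread against both. Lonp1, a matrix protease, read 1609 against 432 and 765, at least 2.70-fold over scrambled, whose value was below the floor, and 2.10-fold over untreated, inside a spread of 2.22-fold. Grpel2, an exchange factor of Hspa9, read 1868 against 1398 and 1200.2, and Timm44, of the import motor, read 3373 against 4264 and 4234, both within the spread. A family probe set of the import receptor gene Tomm70a read 4734 against 2309.6 (scrambled) and 3647 (untreated), while its other probe sets, at 1418, 1274 and 1700.3 and at 746, 634 and 832, lay between the controls. Of 7 stress-inducible genes past the filter, read by 8 probe sets, the metallothionein gene Mt2 was the 1 past the spread against both. It read 1912 against 4552 and 4661. Gadd45b, Sqstm1 and Nfe2l2, of the damage and oxidative stress responses, differed by at most 0.73 from either control, and Sqstm1 was past its spread of 0.63 against scrambled.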

How the data were processed

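RNA of the LNC line was measured on Affymetrix arrays, 1 per group. The authors deposited linear intensity per probe set, with a trimmed mean of 1500 on each array and 24.8% to 27.9% of values at or below 0 (seen in the values). How the scanner images were summarised is not stated in what was read here. Here each array was rescaled to a common trimmed mean (2% removed from each end, controls left out), values were raised to a floor of 2 robust SDs of the values below 0, and log2 was taken (Python 3.11.15, pandas 2.3.3, scipy 1.17.1). Of 12588 probe sets, the 6127 above the floor on any array were tested for size. Symbols came from the platform annotation, and promoter sequences from RefSeq. Counting was tested on simulated data. Values are given for members past the control spread, the brightest of each compartment and genes with several probe sets; from other lists, up to 4 genes with the largest smaller difference. Members and lists were chosen with earlier results of these data known. The number of arrays limits precision.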

Additional observations from a re-analysis of the deposited data

How the results depend on the processing

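No paired analysis was possible because each group has 1 array. The 4 lower calls on Hspa8, Hspa5, Hspa4 and Dnajc3 were the same probe sets with 0.5 or 1.5 times the floor, unscaled deposited values, median scaling and quantile normalization. The 1 higher call was Hsph1 in these except quantile normalization, where it was Hspe1 instead. Spike-in scaling gave 0 lower and 15 higher calls and reversed 4 called differences, to 0.18 for Hsp90aa1 and 0.0231 for Hspa5 from scrambled and to 0.088 from scrambled and 0.0764 from untreated for Hspa8. From untreated and from scrambled its medians were 0.32 and 0.41 for ER, 0.45 and 0.29 for cytosolic, 0.43 and 0.41 for ring and 0.64 and 0.63 for mitochondrial genes. Without J-domain proteins the ER median is the value of Hspa5 alone, -0.49 from scrambled and -0.67 from untreated. The ER median was 0.0868 from untreated without suffixed probe sets, above the mitochondrial and cytosolic medians in that setting.

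Counts at 2-fold were small and moved with the floor and the fold. Against untreated, where the main count was 2, it was 6 with 0.5 times the floor, 0 with 1.5 times the floor, 6 with spike-in scaling, 0 for members above the floor on all arrays, 1 without suffixed probe sets and 13 at 1.5-fold. Against scrambled (3) it was 6, 1 with 1.5 times the floor, 1 for members above the floor on all arrays and 7 at 1.5-fold. Between the controls (2) it was 5, 0 with 1.5 times the floor, 0 above the floor on all arrays, 0 without suffixed probe sets and 9 at 1.5-fold. Against both controls (0 and 0) it was 1 higher and 1 lower with 0.5 times the floor, 1 higher with spike-in scaling, 1 lower with median scaling and 4 lower at 1.5-fold. Genes with all probe sets of 1 sign against scrambled (3) were 5 with 0.5 times the floor, 5 with median scaling and 6 with spike-in scaling. Among the other listed genes, higher calls (1) were 2 with 1.5 times the floor and 17 with spike-in scaling, and lower calls (2) were 4 with median scaling and 0 with spike-in scaling. The cause of these shifts was not tested, and low signal over background limits every value near the floor.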
